A study of Mus musculus with 39 samples.

Results

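The experiment described here is the exposure of cultured mouse granule cells to UNC1999, an inhibitor of both EZH2 and EZH1, until 5 days in vitro (DIV5). The columns of the deposited count table that carry the labels DIV5 UNC1999 and DIV5 DMSO were set against each other, which takes 4 of the 39 libraries of the series. The cells were primary granule cells from the cerebella of C57Bl/6J pups at postnatal day 6 to 7. They were grown with UNC1999 at 100 nM (2 libraries) or with its solvent DMSO (2 libraries) and collected at DIV5. DMSO cultures collected at DIV2 (2 libraries) and freshly isolated cells (DIV0, 2 libraries) give the course of the culture. A separate set of DIV5 cultures from mice at postnatal day 7 (P7) carried floxed Ezh1 with Atoh1-Cre (Ezh1 cKO, 4 libraries) or unaltered Ezh1 with Atoh1-Cre (5 libraries), so all of them had the Cre that is active in granule cell progenitors. Ribosome-bound RNA from Neurod1-bacTRAP mice at P7, P12 and P21 (5 libraries each) gives the course in the animal. All values are from polyadenylated RNA. The labels do not say whether libraries of a group came from separate animals or separate cultures, so each p-value measures only the spread between these libraries, which may be technical.

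EZH2 and EZH1 are the alternative catalytic subunits of Polycomb repressive complex 2 (PRC2), which methylates histone H3 at lysine 27. The trimethylated mark, H3K27me3, is bound by the Cbx proteins of Polycomb repressive complex 1 (PRC1) and lies over genes held silent, while KDM6A and KDM6B remove it. Cerebellar granule cells are small excitatory neurons that leave the cell cycle after birth, migrate inward and then switch on the receptors and channels of the mature neuron. No histone mark was measured in these libraries, so none of the values below shows how far the inhibitor lowered H3K27me3.

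Of 33 tested genes of the mature granule cell, 18 were higher with UNC1999 than with DMSO and 0 were lower, beside 6.36% higher and 5.53% lower of all genes tested. The lists of glutamate receptor, GABA and glycine receptor and potassium channel genes had members called in both directions. Of 27 tested voltage-gated sodium and calcium channel genes, 14 were higher and 0 were lower. The lists were chosen with earlier results of these data known, so their counts are descriptions and not independent tests. The rises included Grin2c, an NMDA receptor subunit gene of the mature cell, and Gabra6, the GABA-A receptor subunit gene that marks mature granule cells. Genes that were lower included Col24a1, a fibrillar collagen gene, Rasgrf2, a Ras exchange factor gene, and 7 of 13 Bergmann glia and astrocyte markers. The promoters of the leading genes are shown to let the reader see how unlike they are in CG dinucleotides, the dense runs of which are where PRC2 is known to be recruited in mammals. Each is the RefSeq window of 300 bases around the gene's start in GRCm38.p6, read 5′ to 3′ on the gene's strand, with each CG in capitals. The Gabra6 window is chr11:42321023-42321322 on the minus strand, the Grin2c window chr11:115267194-115267493 on the minus strand and the Cbln3 window chr14:55884207-55884506 on the minus strand. The Col24a1 window, from the gene with the largest fall of those called that averaged 1 CPM or more, is chr3:145292222-145292521 on the plus strand.
Gabra6: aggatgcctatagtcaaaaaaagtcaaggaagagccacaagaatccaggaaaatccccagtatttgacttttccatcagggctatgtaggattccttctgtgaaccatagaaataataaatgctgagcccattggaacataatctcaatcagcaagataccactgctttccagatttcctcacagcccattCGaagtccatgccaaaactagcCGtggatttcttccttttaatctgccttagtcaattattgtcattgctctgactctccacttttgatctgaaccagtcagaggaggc
Grin2c: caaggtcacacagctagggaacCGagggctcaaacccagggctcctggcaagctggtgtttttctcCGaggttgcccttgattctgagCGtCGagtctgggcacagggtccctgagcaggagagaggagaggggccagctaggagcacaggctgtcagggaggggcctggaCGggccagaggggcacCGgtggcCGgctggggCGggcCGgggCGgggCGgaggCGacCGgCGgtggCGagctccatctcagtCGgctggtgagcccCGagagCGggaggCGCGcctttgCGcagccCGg
Cbln3: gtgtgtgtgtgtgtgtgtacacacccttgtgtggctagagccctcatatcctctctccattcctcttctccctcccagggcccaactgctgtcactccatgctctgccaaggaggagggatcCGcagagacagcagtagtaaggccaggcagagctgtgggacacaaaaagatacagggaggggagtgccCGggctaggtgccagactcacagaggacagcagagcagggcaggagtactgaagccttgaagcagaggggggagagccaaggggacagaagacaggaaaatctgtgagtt
Col24a1: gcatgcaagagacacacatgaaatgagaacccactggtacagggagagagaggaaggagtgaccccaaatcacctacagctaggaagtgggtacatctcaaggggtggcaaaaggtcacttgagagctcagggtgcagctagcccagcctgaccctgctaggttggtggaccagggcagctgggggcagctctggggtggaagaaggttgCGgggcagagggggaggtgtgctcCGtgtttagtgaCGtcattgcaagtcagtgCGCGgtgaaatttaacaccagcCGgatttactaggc

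The Grin2c window held 22 CG dinucleotides, while those of Gabra6 and Cbln3 held 2 each and that of Col24a1 held 6. Over the 27025 RefSeq mouse promoter windows of this length the median was 7, and 23.8% had no more than Gabra6. Many of those genes were not tested here. Among the 12525 tested genes with a window (78.4%) the median was 19, and 9.73% had under 5. The leading rises therefore included both a CG-rich and CG-poor starts. The genes themselves lie at chr11:42306437-42321072 (Gabra6, Entrez gene 14399), chr11:115249169-115267297 (Grin2c, 14813), chr14:55878920-55884256 (Cbln3, 56410) and chr3:145292472-145552013 (Col24a1, 71355) in the same build. The short motif TTGGC, which nuclear factor I proteins bind, searched on both strands, was found 1 time in the Gabra6 window and 2 times in that of Cbln3, but not in those of Grin2c and Col24a1. It occurred in 47.0% of all windows, so its presence is a description of the letters only. A comparison of promoter composition over all called genes was void, because fewer than 80% of the genes that rose (77.7%) or fell (75.3%) had an entry.

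Of 15978 genes tested at DIV5, 1016 were higher with UNC1999 than with DMSO (6.36%) and 883 were lower (5.53%), at an adjusted p under 0.05 by edgeR's quasi-likelihood test, or 11.9% in either direction. The shares of 6.36% and 5.53% are the background for each count of list members below. Since the lists were chosen with earlier results of these data known, a count above these shares is a description only. Most differences were small. The median change was 1.26-fold among genes that rose and 1.33-fold among genes that fell, and a log2 fold change of at least 1 was reached by 54 genes that rose (0.338%) and 71 that fell (0.444%). In all called genes the libraries of the 2 groups did not overlap in normalised level (CPM, counts per 1e6 scaled counts). That alone is common with 2 libraries a group, since both UNC1999 libraries lay above both DMSO libraries in 27.3% of all genes tested and below them in 27.6%. The counts of calls depended on single libraries. Without DMSO replicate 1 there were 619 higher and 320 lower genes, without DMSO replicate 2 671 and 626, without UNC1999 replicate 1 620 and 478, and without UNC1999 replicate 2 601 and 331.

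**Figure D1:**
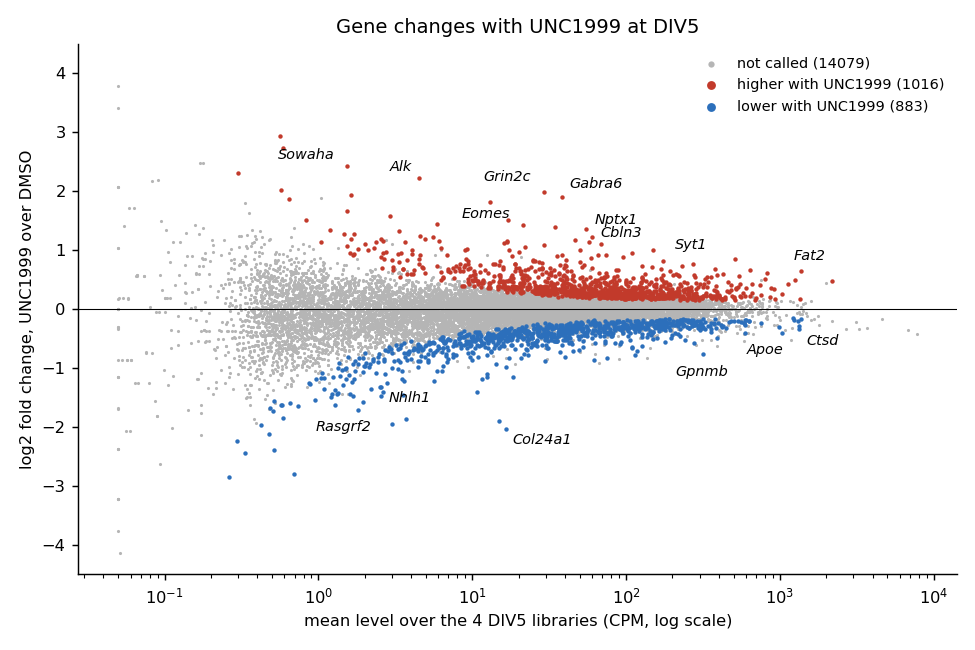
Log2 fold change of UNC1999 over DMSO at DIV5 (vertical axis) against the mean level of the 4 libraries in CPM (log axis; means under 0.05 are drawn at 0.05), with a point for each gene tested. The 1016 genes called higher (red) and 883 called lower (blue) lie mostly within 1 log2 unit of 0, and 3 genes beyond 4.5 log2 units are outside the plot.

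The 4 libraries held between 16.58 M and 29.43 M counts each (1e6 counts). Granule cell genes were high in all of them: Neurod1, the transcription factor of differentiating granule cells, stood at 1016 and 960.3 CPM with UNC1999 and at 773 and 771 CPM with DMSO. Cells of other types were present as well. Summed over 14 vascular and meningeal markers the level was 16880 and 16310 CPM with UNC1999 and 20410 and 17800 CPM with DMSO, against 4458 and 7302 CPM at DIV2 and 1227 and 1222 CPM at DIV0. In bulk RNA, fewer cells of a type and less RNA per cell cannot be told apart.

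The targets of the inhibitor did not pass the test at the level of RNA. Ezh2 had 30.0 and 33.0 CPM with UNC1999, against 29.0 and 33.2 CPM with DMSO, a log2 fold change of 0.02 ± 0.08 (SE, 2 libraries each; adjusted p = 0.929). These levels overlapped, and both were far under the 187 and 176 CPM of DIV0 cells. Ezh1 had 59.8 and 59.4 CPM with UNC1999 and 52.8 and 53.7 CPM with DMSO (log2 fold change 0.16 ± 0.07, adjusted p = 0.150), so its libraries did not overlap but the difference missed the threshold. The core subunit genes Suz12 (91.2 and 82.8 CPM with UNC1999, 79.8 and 80.8 CPM with DMSO) and Eed (40.9 and 40.2 CPM with UNC1999, 36.7 and 38.7 CPM with DMSO) did not pass either.

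Beside 6.36% and 5.53% of all genes, 2 of 12 PRC2 core and accessory genes tested rose and 0 fell. These were Jarid2, whose product helps bring PRC2 to chromatin, with 183 and 185 CPM with UNC1999 against 145 and 147 CPM with DMSO (log2 fold change 0.34 ± 0.05, adjusted p = 0.000501), and Epop, another accessory subunit gene (0.44 ± 0.13, adjusted p = 0.046). Of 20 genes of PRC1 and its Cbx readers, 5 rose and 1 fell. Cbx7, which encodes a reader of H3K27me3, had 11.8 and 11.7 CPM with UNC1999, against 6.14 and 6.80 CPM with DMSO, 9.09 and 7.27 CPM at DIV2 and 7.01 and 8.09 CPM at DIV0, and so was highest in the UNC1999 libraries. Rybp, a subunit of variant PRC1, rose by a log2 fold change of 0.55 ± 0.06 (adjusted p = 5.64e-05). Bmi1, a core PRC1 subunit gene, rose by 0.47, Phc2 rose by 0.16, and Pcgf5 fell by 0.57. Among the 3 genes for H3K27 demethylases, Kdm6b rose: it had 176 and 194 CPM with UNC1999 and 156 and 153 CPM with DMSO (log2 fold change 0.26 ± 0.05, adjusted p = 0.0067). Kdm6a and the Y-linked Uty did not pass. Without 1 library the calls were lost of Kdm6b (without UNC1999 replicate 2, adjusted p = 0.0704), Pcgf5 (without DMSO replicate 1, 0.261, or UNC1999 replicate 2, 0.298), Epop (with any library other than UNC1999 replicate 2 left out, up to 0.298) and Phc2 (without any of the 4, up to 0.167).

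Receptor genes of the mature granule cell were among the 20 largest rises of genes that averaged 1 CPM or more. Gabra6 had 58.8 and 61.6 CPM with UNC1999, against 16.9 and 15.5 CPM with DMSO, 7.41 and 7.21 CPM at DIV2 and 0.0649 and 0 CPM at DIV0. The UNC1999 libraries stood above all others, with a log2 fold change over DMSO of 1.90 ± 0.09 (adjusted p = 1.09e-07). Gabrb2, a beta subunit gene, rose by 0.72 ± 0.06 and Gabrd, the delta subunit gene of the receptors that carry tonic inhibition in granule cells, by 0.53 ± 0.06. Gabra2, an alpha subunit gene with 42.2 and 37.0 CPM at DIV2, went the other way: it had 8.28 and 7.54 CPM with UNC1999 and 10.0 and 11.3 CPM with DMSO (fell by 0.45 ± 0.12, adjusted p = 0.0276). In all, 8 of 20 tested genes for GABA and glycine receptors rose and 1 fell. Their median was 0.10 on the log2 scale, beside 0.001 over all genes. Gabra2 lost its call without DMSO replicate 2 (adjusted p = 0.193), UNC1999 replicate 1 (0.0626) or UNC1999 replicate 2 (0.191).

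Grin2c, the NMDA receptor subunit gene that comes on as granule cells mature, had 43.2 and 51.0 CPM with UNC1999 and 10.9 and 12.7 CPM with DMSO. It had 4.96 and 6.41 CPM at DIV2 and 1.56 and 1.30 CPM at DIV0, and the fold over DMSO was 1.99 ± 0.12 on the log2 scale (adjusted p = 8.14e-07). Grin2a, the other subunit gene of mature cells, rose by 0.61 ± 0.12 (adjusted p = 0.00473; 0.0645 without DMSO replicate 2). Grin2b, the subunit gene of young neurons, had 40.4 and 37.2 CPM with UNC1999 and 38.2 and 36.8 CPM with DMSO, which overlapped, and 113 and 114 CPM at DIV2. Grm4, the metabotropic receptor gene found at the terminals of granule cell axons, had 622 and 685 CPM with UNC1999 and 369 and 354 CPM with DMSO (0.86 ± 0.06, adjusted p = 5.09e-06). Of 24 tested genes for glutamate receptors 7 rose and 2 fell, the AMPA receptor genes Gria1 (fell by 0.31; adjusted p up to 0.169 with any library other than DMSO replicate 2 left out) and Gria3 (fell by 0.34). The median of this list was 0.017, close to that of all genes.

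**Figure D2:**
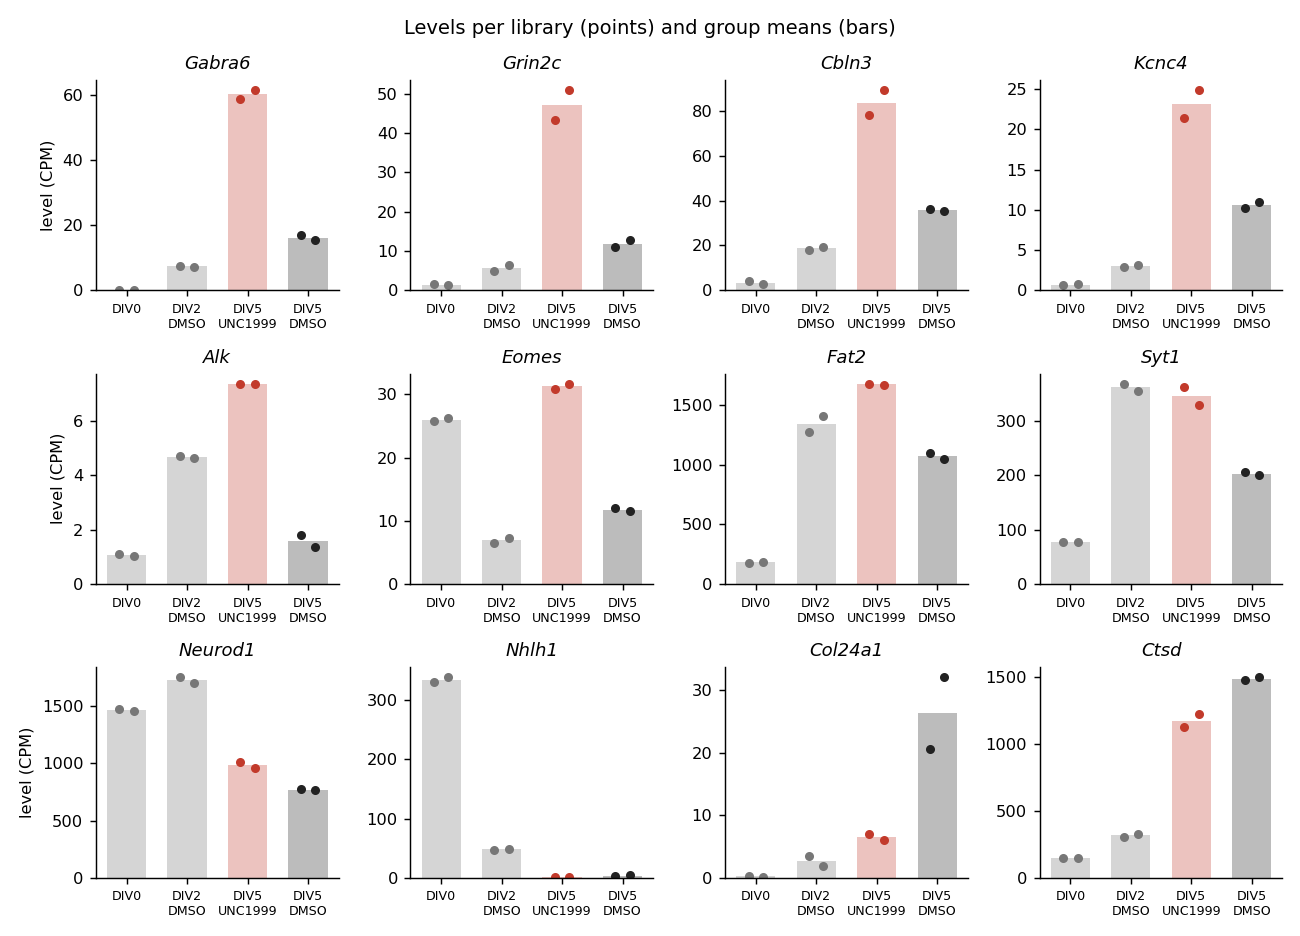
Level in CPM (vertical axes from 0) of 12 genes in freshly isolated cells (DIV0), DMSO cultures at DIV2 and cultures at DIV5 with UNC1999 or DMSO, with a point for each library and bars for the means of 2. Gabra6, Grin2c, Cbln3 and Kcnc4 were highest in the UNC1999 libraries, Syt1 with UNC1999 lay near its level at DIV2, and Col24a1 and Ctsd were highest with DMSO at DIV5.

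Among 33 tested genes of the mature granule cell, which include receptor genes above, 18 rose and 0 fell, and their median log2 fold change was 0.42. Summed over the list the level was 8581 and 8591 CPM with UNC1999 and 6739 and 6631 CPM with DMSO, while it was 10690 and 10920 CPM at DIV2. At DIV0 it was 7753 and 7612 CPM, so the UNC1999 libraries lay between those of DIV0 and DIV2 and the DMSO libraries under both. Cbln3, a granule cell gene for a secreted synapse organiser, had 78.0 and 89.4 CPM with UNC1999 and 36.3 and 35.4 CPM with DMSO, against 18.1 and 19.4 CPM at DIV2. Its log2 fold change over DMSO was 1.23 ± 0.09 (adjusted p = 6.33e-06). Cbln1, which encodes the cerebellin that links parallel fibres to Purkinje cells, had 749 and 827 CPM with UNC1999 and 495 and 499.6 CPM with DMSO. Slc12a5, the gene of the chloride exporter that makes GABA inhibitory, had 206 and 240 CPM with UNC1999 and 126 and 128 CPM with DMSO (0.82 ± 0.07, adjusted p = 2.11e-05). Etv1, an activity-dependent transcription factor gene of maturing granule cells, rose by 0.87 ± 0.08.

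Fat2, a granule cell protocadherin gene, had 1682 and 1670 CPM with UNC1999 and 1100 and 1049 CPM with DMSO, against 1275 and 1411 CPM at DIV2. Chn2, which encodes a Rac regulator, had 291 and 284 CPM with UNC1999 and 178 and 167 CPM with DMSO. Other members that rose were Car4, a carbonic anhydrase gene (log2 fold change 1.59 ± 0.27), Crtam (1.45 ± 0.20) and Rasgrf1 (1.01 ± 0.24). Reln, the gene of the secreted protein reelin, had 933 and 948 CPM with UNC1999 and 682 and 639 CPM with DMSO (0.51 ± 0.05), but 1669 and 1745 CPM at DIV2. The count of members that rose was 17 or 18 when any of the 4 libraries was left out. Summed markers of glia, interneurons, microglia and vessels were lower in both UNC1999 libraries than in both DMSO libraries, and their part in these rises was not tested.

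Because Neurod1 itself rose by 0.36 ± 0.05 (adjusted p = 0.000236), the leading genes were also read per 100 counts of Neurod1, a scale chosen after the values were seen. Gabra6 stood at 5.78 and 6.42 with UNC1999 and 2.18 and 2.01 with DMSO on that scale, which is 2.91-fold. The same ratio was 3.12-fold for Grin2c and 1.83-fold for Cbln3. It was 1.33-fold for Syt1, 1.30-fold for Chn2, 1.22-fold for Fat2 and 1.14-fold for the sodium channel gene Scn2a. Per 100 counts of Zic1, a transcription factor gene of the granule lineage that rose by 0.49 ± 0.04, Gabra6 was 2.64-fold and Scn2a 1.03-fold as high.

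Synapse genes rose in smaller steps. Of 32 tested, 16 rose and 1 fell, and the list had a median of 0.20. Syt1, the calcium sensor gene of vesicle release, had 362 and 329 CPM with UNC1999 and 205 and 200.1 CPM with DMSO (0.77 ± 0.05, adjusted p = 2.59e-06), while Syt2, a close relative, had 51.9 and 47.7 CPM with UNC1999 and 63.8 and 63.5 CPM with DMSO (fell by 0.36 ± 0.06, adjusted p = 0.00245). The active zone genes Rims2 (0.74), Pclo (0.37) and Bsn (0.33) and the postsynaptic scaffold gene Shank1 (0.47) rose. Of these, Pclo had 339 and 324 CPM with UNC1999 and 260 and 252 CPM with DMSO, both under the 451 and 465 CPM of DIV2. The number that rose was 9 without DMSO replicate 1 and 9 without UNC1999 replicate 2.

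Of 27 tested genes for voltage-gated sodium and calcium channels, 14 rose and 0 fell, with a median of 0.25. Cacna1i, which encodes a T-type calcium channel, had 57.2 and 71.4 CPM with UNC1999 and 29.8 and 27.4 CPM with DMSO, and 1.30 and 0.989 CPM at DIV0 (1.18 ± 0.15, adjusted p = 0.00235). The P/Q-type channel gene Cacna1a (0.40), the R-type gene Cacna1e (0.59) and the T-type gene Cacna1g (0.46) rose, as did the axonal sodium channel gene Scn2a (0.54) and its relative Scn1a (0.57). The count was 9 without DMSO replicate 1 and 10 without UNC1999 replicate 2.

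Potassium channel genes moved both ways, with 14 higher and 8 lower of 50 tested, beside 6.36% and 5.53% of all genes. Kcnc4, a voltage-gated potassium channel gene, had 21.5 and 24.9 CPM with UNC1999 and 10.2 and 11.03 CPM with DMSO, against 2.91 and 3.17 CPM at DIV2 (1.13 ± 0.11, adjusted p = 3.11e-05). Kcnk3, which encodes a leak channel, had 44.2 and 47.9 CPM with UNC1999 and 23.8 and 25.6 CPM with DMSO. The Kv1 gene Kcna2 (0.74) and the inward rectifier gene Kcnj12 (0.80) rose as well. Among those that fell, Kcna4 had 1.64 and 1.23 CPM with UNC1999 and 3.22 and 2.43 CPM with DMSO, and Kcnc2 had 1.11 and 1.16 CPM with UNC1999 and 2.22 and 2.47 CPM with DMSO. The number that fell was 4 without DMSO replicate 1, 2 without DMSO replicate 2, 4 without UNC1999 replicate 1 and 1 without UNC1999 replicate 2. Kcna4 lost its call without DMSO replicate 1 (adjusted p = 0.167) or UNC1999 replicate 2 (0.174), and Kcnc2 with any library other than DMSO replicate 1 left out (up to 0.092).

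**Figure D3:**
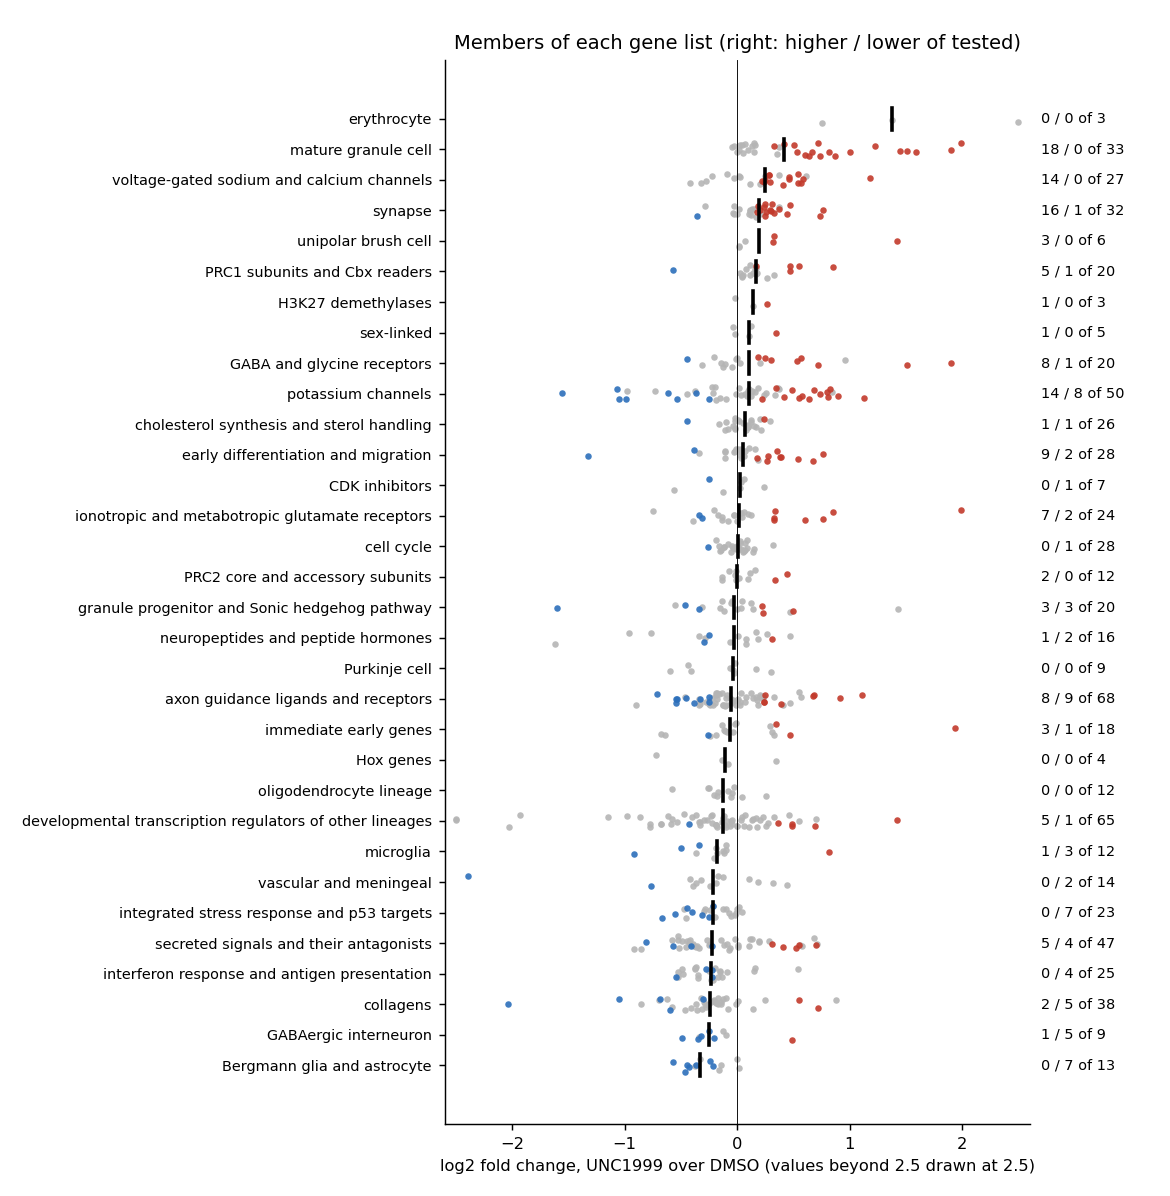
Log2 fold change of UNC1999 over DMSO at DIV5 (horizontal axis) for the tested members of each gene list with at least 3 of them; red points were called higher, blue called lower, grey neither, black bars are list medians, and values beyond 2.5 are drawn at 2.5. Mature granule cell genes (18 higher, 0 lower of 33) and sodium and calcium channel genes (14 higher, 0 lower of 27) lie right of 0, and Bergmann glia and astrocyte markers (0 higher, 7 lower of 13) lie left of it.

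Genes of earlier differentiation were mixed. Of 28 tested, 9 rose and 2 fell. Rbfox3, the gene of the neuronal marker NeuN, had 400.0 and 438 CPM with UNC1999 and 278 and 298 CPM with DMSO (0.54 ± 0.06). Ebf3, a transcription factor gene with 584 and 588 CPM at DIV0, had 18.9 and 15.6 CPM with UNC1999 and 10.1 and 10.0 CPM with DMSO (0.76 ± 0.09). Nhlh1, a transcription factor gene of newborn granule cells, had 1.44 and 1.48 CPM with UNC1999, against 3.39 and 3.93 CPM with DMSO, 47.1 and 49.2 CPM at DIV2 and 331 and 339 CPM at DIV0. It was lowest in the UNC1999 libraries (fell by 1.33 ± 0.15, adjusted p = 8.77e-05). Dpysl3, a growth cone gene, fell by 0.38 ± 0.06.

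Of 20 genes of the granule progenitor and the Sonic hedgehog pathway, 3 rose (Zic1, Zic5 and the hedgehog receptor gene Ptch1) and 3 fell. Gli1, the transcription factor gene switched on by hedgehog signalling, had 0.241 and 0.387 CPM with UNC1999 and 0.936 and 1.06 CPM with DMSO, all far under the 88.9 and 88.2 CPM of DIV0 (fell by 1.60 ± 0.32, adjusted p = 0.00552). Gas1, a hedgehog co-receptor gene, fell by 0.47 and Sox11 fell by 0.34. Atoh1, the progenitor transcription factor gene, had 0.385 and 0.0967 CPM with UNC1999 and 0.0585 and 0.0883 CPM with DMSO and did not pass. Of 28 cell cycle genes, 1 fell, the replication gene Mcm6 (fell by 0.26), beside 5.53% of all genes. Mki67, the proliferation marker gene, had 87.9 and 89.3 CPM with UNC1999 and 95.2 and 100.3 CPM with DMSO, which did not pass, against 1326 and 1284 CPM at DIV0. The calls of Gas1 and Mcm6 were lost without DMSO replicate 1 or UNC1999 replicate 2 (adjusted p up to 0.101 and 0.254), and those of Ptch1 and Zic5 with any library other than UNC1999 replicate 2 left out (up to 0.199 and 0.187).

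Hox genes and lineage regulators are genes for which PRC2 is best known in other tissues. Of 39 Hox genes, 19 were at 0 in the 4 DIV5 libraries and 4 passed the filter on low counts, none of which was called. The 39 together summed to 3.18 and 3.58 CPM with UNC1999 and 3.69 and 4.19 CPM with DMSO. Of 109 transcription regulators of other lineages, 65 were tested, 5 rose and 1 fell, beside 6.36% and 5.53% of all genes, and the median was −0.13 on the log2 scale. Those that rose were the T-box gene Eomes (1.42 ± 0.09, adjusted p = 8.52e-07), the homeobox genes Otx1 (0.69), En2 (0.49), Lhx1 (0.48) and Tlx3 (0.36), all of which had at least 3 CPM with DMSO. Eomes had 30.8 and 31.7 CPM with UNC1999, against 11.9 and 11.5 CPM with DMSO, 6.55 and 7.21 CPM at DIV2 and 25.8 and 26.2 CPM at DIV0. Eomes marks unipolar brush cells, another excitatory cell type of the cerebellum, and 3 of 6 genes of that marker list rose, Plcb4 (0.32) among them. The list summed to 441 and 426 CPM with UNC1999 and 351 and 342 CPM with DMSO, and its part in the rise of Eomes was not tested. Plcb4 lost its call without DMSO replicate 2 (adjusted p = 0.0556) or UNC1999 replicate 1 (0.0605), and Tlx3 without UNC1999 replicate 2 (0.0573). En2, which patterns the cerebellum and stays on in granule cells, had 149 and 153 CPM with UNC1999 and 109 and 107 CPM with DMSO.

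Of 7 genes for cyclin-dependent kinase inhibitors, 0 rose and 1 fell. Cdkn2a, a much studied Polycomb target in dividing cells, had 1.16 and 2.87 CPM with UNC1999 and 3.69 and 2.65 CPM with DMSO, which overlapped. Cdkn1a, a p53 target, had 263 and 248 CPM with UNC1999 and 302 and 304 CPM with DMSO (fell by 0.25 ± 0.06, adjusted p = 0.0195). Among 23 integrated stress response and p53 target genes, 0 rose and 7 fell, with Eda2r (fell by 0.67), Ccng1 (fell by 0.55) and Bax (fell by 0.21) among them. This count was 1 without UNC1999 replicate 2, 2 without DMSO replicate 1, 3 without UNC1999 replicate 1 and 5 without DMSO replicate 2. Ccng1 lost its call without UNC1999 replicate 2 (adjusted p = 0.0867), Cdkn1a with any library other than UNC1999 replicate 1 left out (up to 0.15) and Bax without any of the 4 (up to 0.175).

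The list of secreted signals and their antagonists also held Fgf11 to Fgf14, whose products are not secreted. Of its 47 tested genes 5 rose and 4 fell, beside 6.36% and 5.53% of all genes. Fgf12 and Fgf14 were among the rises and Fgf13 among the falls. Fgf5, a fibroblast growth factor gene, had 9.96 and 10.3 CPM with UNC1999 and 6.85 and 5.74 CPM with DMSO (0.70 ± 0.13), while Inhba, an activin subunit gene, had 8.37 and 7.61 CPM with UNC1999 and 14.4 and 13.5 CPM with DMSO (fell by 0.81 ± 0.13). Of 16 neuropeptide and peptide hormone genes tested, 1 rose and 2 fell, beside 6.36% and 5.53% of all genes. Chgb was higher (0.31), and Scg2 (fell by 0.29) and Nxph4 (fell by 0.25) were lower. Axon guidance genes were split, with 8 higher and 9 lower of 68, beside 6.36% and 5.53% of all genes. Sema5b had 89.8 and 98.1 CPM with UNC1999 and 44.2 and 43.2 CPM with DMSO (1.11 ± 0.07, adjusted p = 1.04e-06), Sema3d rose by 0.91 ± 0.08, Sema3c fell by 0.55 ± 0.07 and the Slit receptor gene Robo2 fell by 0.45 ± 0.06. Of 18 immediate early genes, Egr4 (1.93 ± 0.34), Nr4a2 (0.47) and Jun (0.35) rose and Fosl2 fell by 0.26. Of 26 genes of cholesterol synthesis and sterol handling, 1 rose, Abcg1 (0.24), and 1 fell, which are shares no higher than those over all genes. Leaving out a library changed several of these calls. Abcg1, Fosl2 and Nxph4 lost theirs without any of the 4 (adjusted p up to 0.223, 0.296 and 0.298), Nr4a2 without DMSO replicate 1 or UNC1999 replicate 1 (up to 0.0967) and Scg2 without DMSO replicate 2 (0.059). Without UNC1999 replicate 2 there were 5 axon guidance genes higher and 4 lower, without DMSO replicate 2 6 were lower, and with the 4 DIV5 libraries fitted alone 14 were lower. Of the secreted signals 3 were higher without either DMSO library, and 2 were lower with any library other than DMSO replicate 2 left out.

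Other large rises were of genes at low and at higher levels. Sowaha had 2.69 and 2.51 CPM with UNC1999 and 0.351 and 0.574 CPM with DMSO (2.43 ± 0.30, adjusted p = 0.00019). Alk, the gene of the receptor tyrosine kinase anaplastic lymphoma kinase, had 7.36 and 7.35 CPM with UNC1999, against 1.81 and 1.37 CPM with DMSO and 4.68 and 4.63 CPM at DIV2 (2.23 ± 0.18, adjusted p = 8.53e-06). Its UNC1999 libraries were highest of the 8 culture libraries. Hrk, a pro-apoptotic BH3-only gene, had 16.0 and 24.2 CPM with UNC1999 and 6.73 and 4.94 CPM with DMSO. Nptx1, which encodes a pentraxin that clusters AMPA receptors, had 71.0 and 86.5 CPM with UNC1999 and 30.7 and 30.9 CPM with DMSO (1.36 ± 0.11, adjusted p = 1.68e-05). Islr2, a gene for a neuronal leucine-rich repeat protein with 392 and 397 CPM at DIV0, had 44.1 and 55.3 CPM with UNC1999 and 17.4 and 20.6 CPM with DMSO. Slc30a3, the gene of the vesicular zinc transporter, rose by 1.66 ± 0.33 (adjusted p = 0.0549 without DMSO replicate 2) and Cdh15, a cadherin gene of granule cells, by 1.24 ± 0.18. Dbpht2, Dgkg, Tox2, Myrip and Fstl4 rose by 1.22 to 1.34. Dbpht2 lost its call with any library other than UNC1999 replicate 1 left out (adjusted p up to 0.151), Myrip with any other than DMSO replicate 2 left out (up to 0.163) and Tox2 without DMSO replicate 2 (0.272) or UNC1999 replicate 2 (0.271). With 1 of the 4 libraries left out, the log2 fold change of Tox2 was as low as 0.72 and that of Myrip as low as 0.83.

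Rnaset2a was called higher with counts of 9 and 25 with UNC1999 and 0 in both DMSO libraries, but it shares nearly identical sequence with Rnaset2b (1156 and 1760 counts with UNC1999, 1123 and 1378 with DMSO), so its value is uncertain.

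Of the genes called lower that averaged 1 CPM or more, the largest fall was that of Col24a1. It had 6.98 and 6.06 CPM with UNC1999, against 20.7 and 32.1 CPM with DMSO, 3.46 and 1.92 CPM at DIV2 and 0.260 and 0.135 CPM at DIV0 (fell by 2.04 ± 0.25, adjusted p = 0.00217). Rasgrf2 had 1.06 and 1.35 CPM with UNC1999 and 4.86 and 4.72 CPM with DMSO (fell by 1.96 ± 0.21, adjusted p = 5.64e-05). Its relative Rasgrf1, as given above, moved in the opposite direction. AI593442 had 6.79 and 5.99 CPM with UNC1999 and 19.8 and 26.96 CPM with DMSO. Other large falls were those of the troponin gene Tnnc2 (fell by 1.86), the sarcomere gene Tcap (fell by 1.58) and Vwf, the von Willebrand factor gene of endothelium (fell by 1.47). The receptor genes Chrm2 (fell by 1.72), Drd1 (fell by 1.45) and Drd2 (fell by 1.41) had low levels: Chrm2 had 1.20 and 0.548 CPM with UNC1999 and 2.69 and 2.74 CPM with DMSO. Others of the 20 largest falls, by 1.33 to 1.63, were of Atp6v0d2, Oca2, Slamf9, Unc45b, Rbp3, Myo1a, Stra6l, Oasl1, Epyc and Nhlh1. Many of these calls were lost when 1 library was left out. Oasl1 lost its call without any of the 4 (adjusted p up to 0.168), Epyc with any library other than UNC1999 replicate 1 left out (up to 0.268) and Stra6l with any other than DMSO replicate 1 left out (up to 0.117). Those of Atp6v0d2 and Rbp3 were lost without DMSO replicate 2 or UNC1999 replicate 1 (up to 0.0605 and 0.0611), that of Oca2 without DMSO replicate 2 or UNC1999 replicate 2 (up to 0.0584) and that of Slamf9 without DMSO replicate 1 or UNC1999 replicate 1 (up to 0.069). Chrm2 lost its call without UNC1999 replicate 2 (adjusted p = 0.0777), Tcap without DMSO replicate 2 (0.0526) or UNC1999 replicate 2 (0.101) and Drd1 with any library other than DMSO replicate 1 left out (up to 0.117).

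Several abundant transcripts fell. Ctsd, which encodes the protease cathepsin D, had 1122 and 1224 CPM with UNC1999 and 1474 and 1496 CPM with DMSO, against 148 and 145 CPM at DIV0 (fell by 0.34 ± 0.05, adjusted p = 0.000818). Ctsb, for cathepsin B, fell by 0.28 and Psap, for prosaposin, fell by 0.15. Gpnmb, a gene for a lysosomal glycoprotein of phagocytes and glia, had 230 and 238 CPM with UNC1999 and 390 and 404 CPM with DMSO (fell by 0.76 ± 0.05). Apoe, the apolipoprotein gene of glia, had 816 and 949 CPM with UNC1999 and 1133 and 1199 CPM with DMSO (fell by 0.40 ± 0.07, adjusted p = 0.0055). The cytoskeleton genes Flna (fell by 0.18), Actb (fell by 0.21) and Actg1 (fell by 0.18) fell slightly, and the actin genes are alike enough that counting may split their reads. Abundant transcripts that rose included Nrep (2548 and 2517 CPM with UNC1999, 1842 and 1808 CPM with DMSO) and Purb (0.43), besides Fat2, Zic1 and Neurod1. Several small changes lost their call without 1 library: Apoe without DMSO replicate 2 (adjusted p = 0.062), Flna without DMSO replicate 1 (0.101) or UNC1999 replicate 2 (0.0989), Actb without DMSO replicate 1 (0.0838) or UNC1999 replicate 1 (0.103), Actg1 with any library other than DMSO replicate 2 left out (up to 0.154) and Psap without any of the 4 (up to 0.152).

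Some markers of glia and of other cells were called, most of them lower with UNC1999, while none of the Purkinje cell, oligodendrocyte lineage or erythrocyte markers was. Of 13 Bergmann glia and astrocyte markers, 0 rose and 7 fell, with a median of −0.33 on the log2 scale, and they summed to 2589 and 2793 CPM with UNC1999 and 3186 and 3137 CPM with DMSO. Slc1a2, the glial glutamate transporter gene, had 122 and 123 CPM with UNC1999 and 157 and 177 CPM with DMSO. Aldh1l1 fell by 0.46, Sox9, which is also on the list of lineage regulators, by 0.43 and Gdf10, a signal gene of Bergmann glia, by 0.57. Of 9 GABAergic interneuron markers 5 fell, among them the vesicular GABA transporter gene Slc32a1 (fell by 0.49) and the GABA-synthesis gene Gad1 (fell by 0.32), and Lhx1 rose. The list summed to 271 and 272 CPM with UNC1999 and 310 and 332 CPM with DMSO. With DMSO replicate 2, UNC1999 replicate 1 or UNC1999 replicate 2 left out, 1 of its members was lower. Of 12 microglia markers, the receptor gene Csf1r (fell by 0.34), Tyrobp (fell by 0.50) and Aif1 (fell by 0.92) were lower and the chemokine receptor gene Cx3cr1 was higher, at 25.4 and 37.8 CPM with UNC1999 and a mean of 18.1 CPM over the DMSO libraries. That list summed to 699 and 788 CPM with UNC1999 and 832 and 849.5 CPM with DMSO. Without UNC1999 replicate 2 there were 2 microglia markers lower, and without any of the other libraries 1. Cx3cr1 lost its call without DMSO replicate 1 (adjusted p = 0.0941) or DMSO replicate 2 (0.0876), Csf1r without DMSO replicate 2 (0.05) or UNC1999 replicate 2 (0.0951), Tyrobp without DMSO replicate 1 (0.0506) or UNC1999 replicate 1 (0.0571), Aif1 with any library other than UNC1999 replicate 2 left out (up to 0.245) and Gad1 with any library other than DMSO replicate 1 left out (up to 0.098).

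Of 14 vascular and meningeal markers 2 fell, beside 5.53% of all genes. The 2 were Cldn5, the endothelial tight junction gene, at 0.0963 and 0.193 CPM with UNC1999 and 1.29 and 0.485 CPM with DMSO, and Tek (fell by 0.76). With the 4 DIV5 libraries fitted alone 5 were lower and 1 was higher, and 0 were lower without DMSO replicate 1 or without UNC1999 replicate 2. None of 9 Purkinje cell, 12 oligodendrocyte lineage or 3 erythrocyte markers was called. Among 38 tested collagen genes, Col9a1 (0.55) and Col27a1 (0.72) rose and 5 fell, with a median of −0.24, and the list summed to 22300 and 21160 CPM with UNC1999 and 27790 and 24370 CPM with DMSO. Col1a1 made up much of that, with 6084 and 5898 CPM with UNC1999 and 8115 and 7270 CPM with DMSO, and did not pass (log2 fold change −0.36 ± 0.27, adjusted p = 0.486). Collagen genes varied between the DIV2 libraries, and with the 4 DIV5 libraries fitted alone 15 of them fell. Of 25 interferon and antigen presentation genes 0 rose and 4 fell, beside 6.36% and 5.53% of all genes. Among the 4 were Ifit3 (fell by 0.55) and the class I genes H2-K1 and H2-D1, whose reads may be shared between them. That count was 10 without UNC1999 replicate 1 and 0 without any other single library. Xist, the long RNA of the inactive X, rose by 0.35 ± 0.06 (649 and 706 CPM with UNC1999, 499 and 564 CPM with DMSO) and was the sex-linked gene called of 5. Cldn5 lost its call with any library other than DMSO replicate 2 left out (adjusted p up to 0.127), Tek with any library other than UNC1999 replicate 1 left out (up to 0.253), Ifit3 and H2-D1 with any library other than UNC1999 replicate 1 left out (up to 0.176 and 0.158), H2-K1 without any of the 4 (up to 0.238) and Col9a1 without DMSO replicate 1 (0.102) or UNC1999 replicate 2 (0.136). The part of other cell types and of sex in the changes of granule cell genes was not tested.

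The called genes were then placed against changes measured in libraries that UNC1999 and DMSO at DIV5 do not share. The DIV2 and DIV0 libraries were in the same fit, however, and so helped set the spread behind the UNC1999 calls. In DMSO cultures at DIV2 against DIV0, 2678 genes were higher by a log2 fold change of at least 1 (16.8% of 15978) and 2198 lower (13.8%). Translating ribosome affinity purification (TRAP) from Neurod1 cells collects ribosome-bound RNA of granule cells in the animal. In a fit of 15 such libraries from P7, P12 and P21, 19.1% of 14483 genes were higher at P21 than at P7 by that size and 22% lower. Of the 2678 genes higher at DIV2, 16.1% rose with UNC1999 and 7.24% fell, beside 6.36% and 5.53% over all genes. Of the 2198 lower at DIV2, 2.87% rose and 7.51% fell. Of 2659 genes tested here that were higher at P21, 12.9% rose and 4.74% fell, and of 3122 lower at P21, 4.93% rose and 8.07% fell.

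Of 904 genes higher in both, 212 rose with UNC1999 (23.5%) and 40 fell (4.42%). Of 1099 lower in both, 21 rose (1.91%) and 86 fell (7.83%). The median log2 fold change with UNC1999 was 0.108 for the 904 genes and −0.08 for the 1099, beside 0.001 over all genes. Where the 2 comparisons parted, the shares that rose followed the change at DIV2 more than that at P21. Of 1567 genes higher at P21 but neither higher nor lower at DIV2, 7.59% rose and 4.72% fell. Of 188 higher at P21 but lower at DIV2, 6.91% rose and 6.38% fell. Of 349 lower at P21 but higher at DIV2, 14.9% rose and 10.9% fell. Across 14212 genes the log2 fold changes with UNC1999 and of P21 over P7 had a Spearman correlation of 0.136. Gabra6 (log2 fold change of P21 over P7 4.85 ± 0.18), Cbln3 (4.96 ± 0.09) and Grin2c (7.58 ± 0.24) were among the genes higher in both. Alk went against that pattern, since it rose with UNC1999 but was lower at P21 than at P7 (−3.26 ± 0.30), as did Islr2 (−4.28 ± 0.17) and Ebf3 (−6.80 ± 0.10). The share called also varied with level: 10.9% of genes above 100 CPM at DIV0 rose, against 1.22% of the 246 genes under 0.1 CPM at DIV0, of which 6.1% fell. These shares describe the genes and carry no test.

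**Figure D4:**
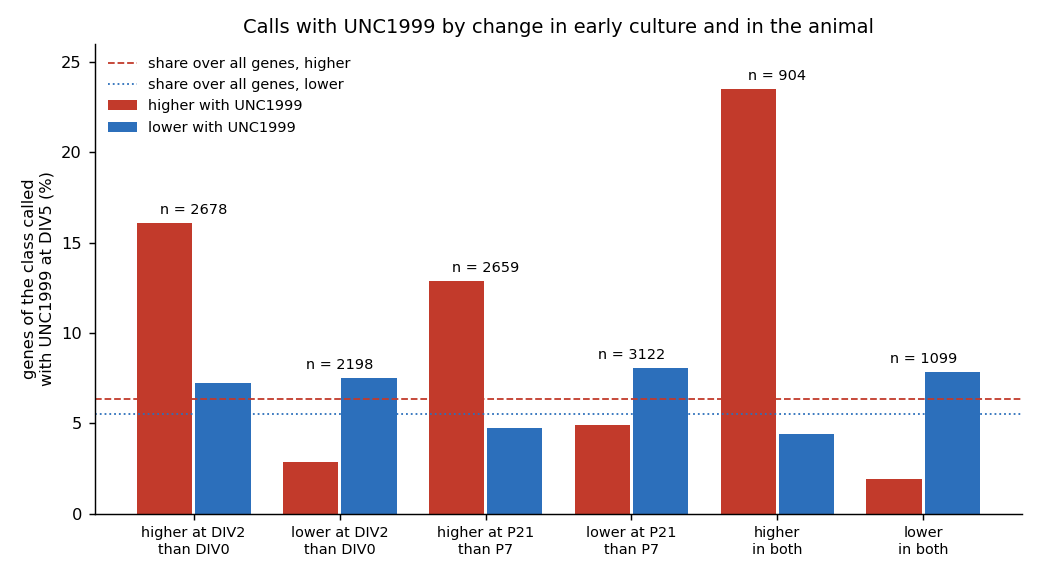
Share of genes (%) called higher (red) or lower (blue) with UNC1999 at DIV5, by their change in DMSO cultures at DIV2 over DIV0, in Neurod1 TRAP at P21 over P7, or in both, each by a log2 fold change of at least 1; dashed and dotted lines are the shares over all 15978 genes. Genes higher in both had 23.5% called higher and 4.42% called lower, and genes lower in both had 1.91% and 7.83%. Genes that changed in opposite directions in the comparisons are not drawn apart.

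Floxed Ezh1, the gene of the other target of the inhibitor, was combined with Atoh1-Cre in the second set of DIV5 cultures. Ezh1 RNA was 35.4, 36.6, 35.1 and 33.2 CPM in the 4 cKO libraries and 42.7, 43.3, 49.3, 47.0 and 39.4 CPM in the 5 libraries with unaltered Ezh1 (wild type), scaled over these 9 libraries. The groups did not overlap, but the counts are over the whole gene and are not a check of the floxed part. In these cultures 0 of 14461 genes passed (0%), and DESeq2 called 1. An unadjusted p under 0.05 was found for 169, fewer than that threshold passes on average when no gene differs. Gabra6 was at 32.6, 40.2, 19.3 and 21.6 CPM in cKO and 39.2, 35.6, 20.01, 11.2 and 12.8 CPM in wild type. Grin2c was at 17.1, 22.5, 20.1 and 17.1 CPM in cKO and 22.9, 20.9, 20.2, 14.6 and 14.6 CPM in wild type, so the groups overlapped for both genes. The spread of Gabra6 among the 5 wild-type libraries was thus wider than that between the 2 DMSO libraries above. In both genotypes replicates 1 and 2 differed from the later ones. They had 17800 and 17596 genes above 0 in wild type and 17746 and 17674 in cKO. The later replicates had 16830 to 16886 in wild type and 16889 and 16948 in cKO, and Gabra6 was lower in them. Neither this fit nor that of the difference of effects modelled this split, and its part in the 0 calls was not tested.

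Among genes that rose with UNC1999 and were measured in the Ezh1 cultures, 61.5% were above 0 in cKO over wild type, compared with 45.5% of those that fell and 47.6% of all genes. Of the 20 largest rises 14 were above 0 in cKO, and of 17 of the largest falls 11 were below 0. The difference between the effects was tested directly in a fit that shares no library between them. For Grin2c the UNC1999 effect exceeded the cKO effect by 1.96 ± 0.30 on the log2 scale and for Gabra6 by 1.65 ± 0.70, and 0 of 15453 genes passed (0%), with a smallest adjusted p of 0.531. By unadjusted p under 0.05 there were 247, fewer than that threshold passes on average when no gene differs. DESeq2 called 6 higher and 1 lower. That genes passed with UNC1999 and not in Ezh1 cKO thus does not show that the effects differ.

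**Figure D5:**
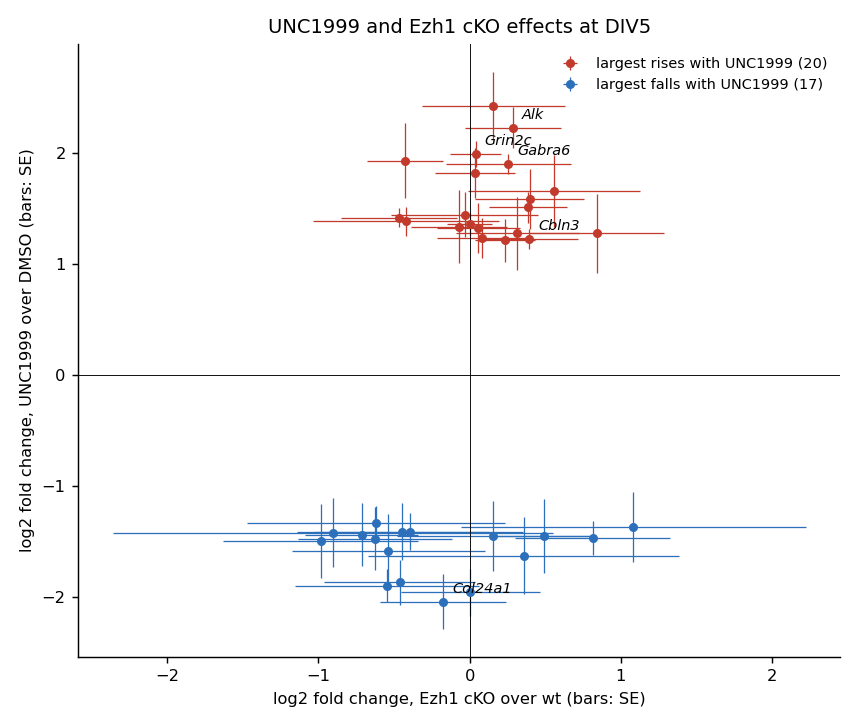
Log2 fold change of UNC1999 over DMSO (vertical axis) against that of Ezh1 cKO over wild type (horizontal axis), both at DIV5, for the 20 largest rises (red) and 17 of the 20 largest falls (blue) of genes that averaged 1 CPM or more, with bars for the standard errors. Most horizontal bars cross 0, and the genes were chosen for their vertical values.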

How the data were processed

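Polyadenylated RNA was sequenced from 39 libraries, of which the 4 DIV5 cultures with UNC1999 or DMSO were compared. The authors deposited a table of 24100 genes, and its values are estimated counts rounded to whole numbers, not normalized. Salmon 0.8.2 and mm10 are listed, with no role, in the submitters' processing notes; the annotation, the summing to genes, the use of strand and any filter are not given in the sources used here, so reads of overlapping or antisense genes cannot be told apart. Identifiers were matched to a symbol for 24045 genes. In the Ezh1 libraries 1041 genes are blank and were left out of those fits.

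The 8 culture libraries (4 groups of 2, 4 residual degrees of freedom) were fitted together with edgeR 4.0.16 in R 4.3.3, after filterByExpr with a minimum count of 10 and a minimum total of 15, under TMM scaling, by robust two-sided quasi-likelihood tests. Calls have a Benjamini-Hochberg adjusted p under 0.05 over all genes tested. CPM are TMM-scaled over these 8 libraries (for Ezh1 cultures, over their own 9), are not per gene length and compare levels of a gene between libraries only. After a log2 fold change, ± is the SE. On simulated data for this comparison with 16025 genes, 80% of 100 genes changed by a log2 fold change of 0.5 were called. Of 100 changed by 1, 96% were called, and there were 7 false calls. In the real libraries the spread between replicates varied by group (chi-square per gene 1.45 at DIV0 and 7.63 in DMSO cultures at DIV2). Whether the simulated shares and false calls hold for real genes of such unequal spread was not tested.

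Members and lists were chosen with earlier results of these data known. Genes named are Ezh1, Ezh2, Kdm6b, Atoh1, Neurod1, Gabra6 and Mki67, the 20 largest rises and falls with a mean of at least 1 CPM, the 10 most abundant called genes per direction and up to 5 members of each list by adjusted p; some genes this rule names are not reported here. Others, such as Cbln1, Etv1, Slc12a5, Reln, Gabra2, Grin2a, Grin2b, Gria1, Cacna1i, Scn1a, Kcna4, Kcnc2, Rasgrf1, Otx1, Suz12, Eed, Phc2, Robo2, Dpysl3, Gpnmb, Col1a1, Rnaset2a and the cell type markers, were named after their values were seen. Promoters are from RefSeq. Replicate libraries differed beyond counting error in every group (chi-square per gene 1.45 to 7.63). Alternatives were library-size scaling, DESeq2 1.42.0, other filters, the 4 DIV5 libraries alone, a replicate block, no robust step and leaving out each library. Reads carry no molecular identifiers.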

Additional observations from a re-analysis of the deposited data

How the results depend on the processing

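With any 1 of the 4 DIV5 libraries left out, 601 to 671 genes were higher and 320 to 626 lower with UNC1999, and 878 to 1125 genes were called with the same direction in both fits. DESeq2 called 493 higher and 453 lower, of which 901 were called with the same direction in the main result. It called 1 gene higher in Ezh1 cKO, and 6 higher and 1 lower for the difference of effects, where the other alternatives run called 0. The counts stayed within 1.5 times the reported ones with library-size scaling, no filter, a mean of at least 1 CPM, no robust step and the 4 DIV5 libraries alone (933 higher, 1198 lower), and no called gene changed sign in any alternative. Whether the replicate numbers pair the libraries could not be settled, and the main fit used no pairing. Deviations of UNC1999 and DMSO at DIV5 correlated at 0.215 over 11744 genes, but those of DMSO at DIV2 and DIV5 at −0.411. With the replicate number as a block 858 genes were higher and 688 lower. Of the 178 genes checked one by one, 107 kept their side of the threshold in every alternative that tested them. Reversed values were those of genes that did not pass: with 1 library left out, the log2 fold change of Ezh2 ran from −0.07 without DMSO replicate 1 to 0.12 without DMSO replicate 2 (−0.06 without UNC1999 replicate 2), and that of Grin2b from −0.007 without UNC1999 replicate 1 to 0.11 without UNC1999 replicate 2. The cause was not tested. With 2 libraries a group, genes of low counts need large differences to pass.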
